A study of Mus musculus with 4 samples.

Results

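Brain endothelial nuclei were rare in these libraries: 487 of the 52132 nuclei kept after filtering (0.934%) carried the marker transcripts of the cells that line brain blood vessels. Single nucleus RNA sequencing was run on the brains of untreated female C57BL/6 mice aged 2 months, 2 wild-type (WT) mice and 2 mice heterozygous for a germline Csf1r deletion (Csf1r+/-), with 1 library from each mouse. Csf1r encodes the receptor for colony-stimulating factor 1, and every cell of the Csf1r+/- mice carried the deletion, so that the effect of the receptor in 1 cell type cannot be told apart from its effect in another. The values were counts of unique molecular identifiers (UMIs), each standing for 1 captured RNA molecule, and the libraries held 112226479 and 89727416 UMIs in the WT mice and 89436507 and 89799327 in the Csf1r+/- mice.

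A nucleus was called endothelial when it held at least 4 UMIs over Flt1, Cldn5, Adgrl4 and Abcb1a together, when these made up at least 0.2% of its UMIs, and when they were at least as many as the UMIs of the mural cell genes Vtn, Rgs5, Pdgfrb, Abcc9 and Atp13a5. The 4 genes chose the nuclei, so their levels are given as a description. Within the 487 nuclei, 215 (44.1%) held no UMI of the neuronal genes Snap25, Rbfox3 and Erbb4 and are called free nuclei below, and the other 272 held at least 1.

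Endothelial cells of the brain form the blood-brain barrier. Tight junctions built around claudin-5 seal the space between cells, solute carriers such as the glucose transporter GLUT1 (Slc2a1) bring nutrients in, and ATP-driven pumps such as P-glycoprotein (Abcb1a) send lipophilic compounds back to the blood. The barrier is kept up by Wnt signals from the brain through Fzd4 and its co-receptors and by contact with pericytes, the mural cells of capillaries, while VEGF, angiopoietin, Notch and TGF-beta signals set vessel growth and arterial or venous identity.

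The members were unevenly spread. WT replicate 1 gave 247 endothelial nuclei, WT replicate 2 gave 81, Csf1r+/- replicate 1 gave 71 and Csf1r+/- replicate 2 gave 88, so that WT replicate 1 held 50.7% of them. As shares of kept nuclei these were 1.53% (exact 95% Clopper-Pearson interval 1.35 to 1.73%), 0.531% (0.422 to 0.660%), 0.740% (0.579 to 0.933%) and 0.787% (0.632 to 0.969%), intervals that cover counting error only. The WT libraries were the highest and the lowest, with both Csf1r+/- libraries between them. The mean share was 1.03% ± 0.708 (SD, n = 2) in WT mice and 0.764% ± 0.0329 (SD, n = 2) in Csf1r+/- mice, a difference of -0.268 percentage points that was smaller than the spread between the WT mice (two-sided exact permutation test, p = 1, where 2 against 2 samples cannot go below 0.333). Without WT replicate 1 the difference turned to 0.232 points, and over free nuclei alone it was 0.0179 points.

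**Figure D1:**
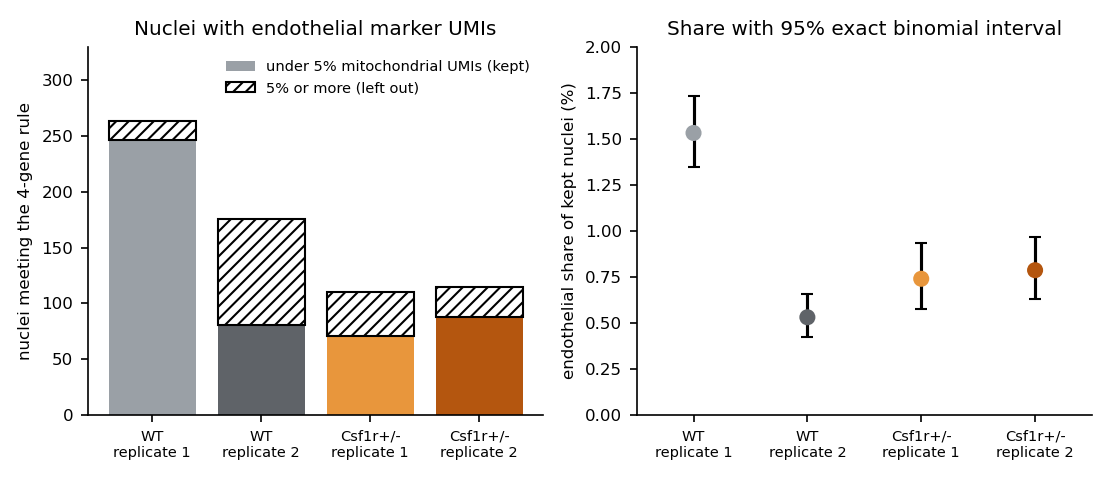
Left, number of nuclei meeting the 4-gene rule in each library. Bars are split into nuclei kept under the mitochondrial limit described below and, hatched on top, nuclei left out by it. Right, the endothelial share of kept nuclei in percent with its 95% exact binomial interval. WT replicate 1 stands apart with 247 kept nuclei and 1.53%, and the other 3 libraries lie between 0.531% and 0.787%.

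The endothelial nuclei were shallow. Their median was 1352, 1973, 1633 and 1902.5 UMIs per nucleus in WT replicates 1 and 2 and Csf1r+/- replicates 1 and 2, against 5490, 4636, 7454 and 6656 UMIs over all kept nuclei of the same libraries. Summed over nuclei, the 4 libraries held 488367, 247812, 205767 and 213095 endothelial UMIs. In Csf1r+/- replicate 1 a single nucleus with 43746 UMIs carried 21.3% of that sum, while the deepest nucleus of the other libraries carried 3.32 to 6.19%. The free nuclei numbered 107, 21, 40 and 47, with sums of 154034, 33669, 69862 and 93975 UMIs, so that values for free nuclei of WT replicate 2 rest on few molecules.

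Nuclei lay close to the threshold on both sides. There were 16 members with exactly 4 UMIs over the rule's genes, where the median member had 14, and 15 kept nuclei had 3 UMIs and met the other conditions. Between 0.2 and 0.25% of their UMIs fell on the 4 genes in 18 members, and between 0.15 and 0.2% in 23 kept nuclei that met the other conditions. A further 87 kept nuclei failed only because their mural UMIs were more. No barcode was shared between endothelial nuclei of different libraries. The limit of 5% mitochondrial UMIs removed 178 of the 665 nuclei that met the marker rule (26.8%), against 3.38% of all barcodes, and it fell hardest on WT replicate 2, where 95 of 176 were removed. Without the limit the endothelial shares were 1.61, 1.08, 1.11 and 1.01%.

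The label was checked against 24 endothelial markers that had no part in the choice. Their summed level was 18027 and 15964 CPM (a gene's UMIs relative to all endothelial UMIs of the library, on the usual CPM scale) in the WT libraries and 20212 and 22657 CPM in the Csf1r+/- libraries, against 577 CPM in neuronal nuclei, and all 24 were detected. Slco1a4, an organic anion transporter of brain vessels, stood at 2328, 1889, 2445 and 2665 CPM in WT replicates 1 and 2 and Csf1r+/- replicates 1 and 2. Ly6c1, a surface antigen of brain endothelium, stood at 1530, 1336, 2221 and 2201 CPM. The glucose transporter gene Slc2a1 was at 784, 1194, 1215 and 1145 CPM. The junctional cadherin gene Cdh5 was at 244, 222, 277 and 244 CPM, and the endothelial transcription factor gene Erg at 170, 121, 141 and 178 CPM. Neuronal nuclei held 1.16 CPM of Slco1a4 and 0.182 CPM of Cdh5. Ptprg, a receptor phosphatase gene, was the exception at 527 CPM in neuronal nuclei.

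**Figure D2:**
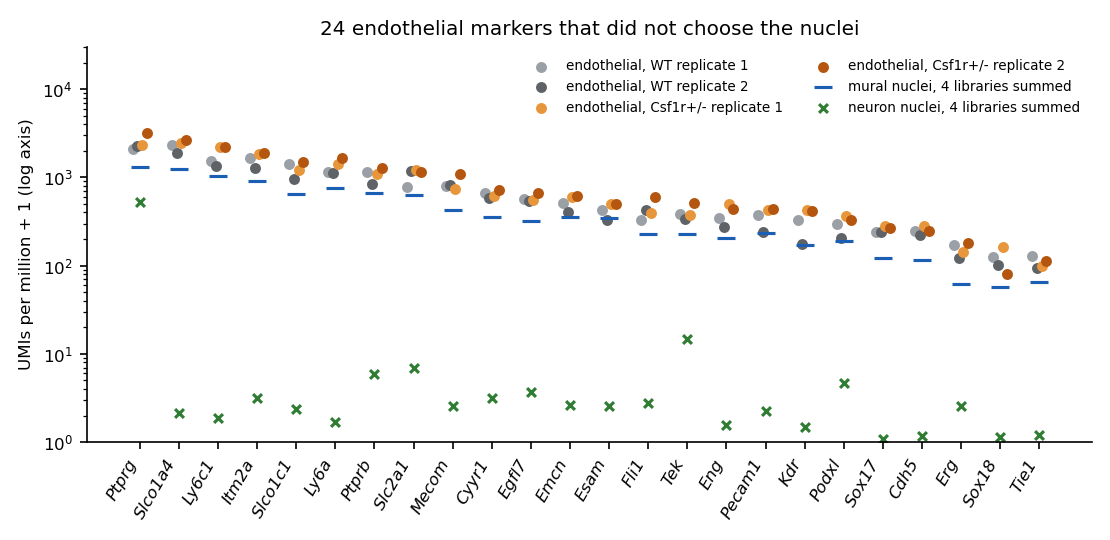
Levels of the 24 endothelial markers in CPM + 1 (log axis) in the endothelial nuclei of each library and, pooled over libraries, in mural and neuronal nuclei. The order of the genes from high to low is that of their level over all endothelial nuclei, mural nuclei carry a lower but clear level, and neuronal nuclei are near the bottom of the axis except for Ptprg at 527 CPM.

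Of the rule's own genes, Flt1 (VEGF receptor 1) had the highest level, at 3354, 2950, 3645 and 4242 CPM in WT replicates 1 and 2 and Csf1r+/- replicates 1 and 2. Cldn5 was at 2205, 1848, 2707 and 2670 CPM, Adgrl4 at 1235, 985, 1672 and 1239 CPM, and Abcb1a at 835, 730, 987 and 1009 CPM.

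The promoters of the rule gene Cldn5 and of the markers Erg and Egfl7 are shown because their transcripts define the nuclei or the endothelial state. Each is the 300 bases from RefSeq (GRCm38.p6) running from 250 bases before to 50 after an annotated start, 5′ to 3′ on the gene's strand, with matches to CAGGAAG on either strand in capitals (CTTCCTG is the same word read on the other strand). This word holds GGAA, the core bound by ETS family transcription factors such as ERG and FLI1, and a match is a description of the letters and not a bound site.
Cldn5, chr16:18776597-18776896, plus strand: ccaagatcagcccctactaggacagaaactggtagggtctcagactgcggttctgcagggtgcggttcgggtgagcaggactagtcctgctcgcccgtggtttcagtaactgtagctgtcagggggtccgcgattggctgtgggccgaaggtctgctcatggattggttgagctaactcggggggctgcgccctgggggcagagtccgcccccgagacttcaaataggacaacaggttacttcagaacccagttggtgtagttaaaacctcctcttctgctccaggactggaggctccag
Erg, chr16:95459299-95459598, minus strand, 1 of its annotated starts: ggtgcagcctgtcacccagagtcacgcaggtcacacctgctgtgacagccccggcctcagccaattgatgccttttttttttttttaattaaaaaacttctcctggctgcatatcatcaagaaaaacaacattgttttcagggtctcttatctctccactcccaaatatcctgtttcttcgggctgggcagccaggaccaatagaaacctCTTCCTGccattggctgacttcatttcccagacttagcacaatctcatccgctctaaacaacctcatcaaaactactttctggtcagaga
Egfl7, chr2:26580833-26581132, plus strand, 1 of its annotated starts: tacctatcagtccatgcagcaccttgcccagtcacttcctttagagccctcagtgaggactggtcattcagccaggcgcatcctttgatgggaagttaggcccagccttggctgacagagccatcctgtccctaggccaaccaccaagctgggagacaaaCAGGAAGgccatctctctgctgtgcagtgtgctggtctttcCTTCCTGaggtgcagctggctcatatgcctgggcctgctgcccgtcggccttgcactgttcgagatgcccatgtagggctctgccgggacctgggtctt
The word was absent from this window of Cldn5, present 1 time in that of Erg and 2 times in that of Egfl7. For Erg and Egfl7 the window with the most matches of 3 annotated starts is shown, and the others held 0 and 0 for Erg and 1 and 0 for Egfl7. Over all 27025 genes with a promoter, 14.8% held CAGGAAG in at least 1 promoter, and of the 19 fixed endothelial markers and rule genes with a promoter there 6 did (Cyyr1, Egfl7, Emcn, Erg, Itm2a and Ptprg). A second ETS word, CCGGAAG, was held by 9.93% of all genes and by 1 of the 19 (Ptprg). Among the 4603 genes tested in these nuclei that have a promoter, 14.4% held CAGGAAG and 19.5% CCGGAAG, among 119 genes higher in endothelial than in mural nuclei 26.9% and 10.1% did, and among 167 genes higher in mural nuclei 15.6% and 5.99% did.

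Markers of other cell types were measured in the same nuclei. The 5 mural genes of the rule were present, mostly as Rgs5, which made up 70.1% of their UMIs and stood at 1587, 1247, 1788 and 1727 CPM against 2845 CPM in the 144 mural nuclei. At least 1 UMI of these genes was found in 397 of the 487 endothelial nuclei (81.5%). Of the 14 mural markers Acta2 and Tagln, the smooth muscle genes, were at 0 in endothelial nuclei. Fibroblast markers summed to 32.8, 8.07, 14.6 and 23.5 CPM, led by Col1a2, with 2 of 8 at 0. All 5 markers of perivascular macrophages (Mrc1, F13a1, Cd163, Lyve1 and Pf4) were at 0. Microglia markers summed to 77.8, 105, 92.3 and 305 CPM, and astrocyte markers to 598, 847, 486 and 516 CPM, led by Slc1a2. Oligodendrocyte markers summed to 340, 1005, 632 and 765 CPM and were mostly Mal (56.4%). Both WT libraries were above both Csf1r+/- libraries in the astrocyte sum, and in free nuclei it was 617 and 980 against 401 and 479 CPM. Of the 3 astrocyte markers tested between genotypes none was positive (median log2 difference -0.96), and Slc4a4, a bicarbonate transporter gene, was lower in Csf1r+/- nuclei at 115 and 121 against 43.7 and 51.6 CPM (-1.37 ± 0.35, edgeR adjusted p = 0.131), past the unadjusted threshold of the genotype comparison below but not by DESeq2. The part of these transcripts in the results was not tested.

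Hemoglobin RNA was confined to very few members. The blood cell markers held 512, 0, 64 and 1 UMIs in the 4 libraries, led by Hbb-bs, and 504 of the 512 in WT replicate 1 and all 64 in Csf1r+/- replicate 1 came from 1 nucleus each. The leukocyte genes Ptprc and Cd3e of this list held 1 UMI and none.

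Neuronal RNA was present in every member. The 15 neuron markers outside the rule's 3 genes summed to 21289 and 23490 CPM in the WT libraries and 16893 and 11183 CPM in the Csf1r+/- libraries, with all 15 detected and Kcnip4 the most abundant (19.1%), against 55356 CPM in neuronal nuclei and 18338 CPM in mural nuclei. The Csf1r+/- replicate 1 nucleus with 43746 UMIs had 4.22% of them on these markers, so 1 nucleus weighs heavily in the sum of that library. In free nuclei the sums were 12069, 9623, 4366 and 5342 CPM. Taken per nucleus, the median share of UMIs on these markers was 1.39% and 1.06% in the WT libraries, against 0.547% and 0.614% in the Csf1r+/- libraries, and no nucleus was at 0. In free nuclei the medians were 1.26, 0.917, 0.519 and 0.638%. Both WT libraries were above both Csf1r+/- libraries in each of these measures. Neuronal marker RNA thus moved with genotype in the endothelial nuclei, and its part in the genotype differences below was not tested beyond the split into free and other nuclei.

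**Figure D3:**
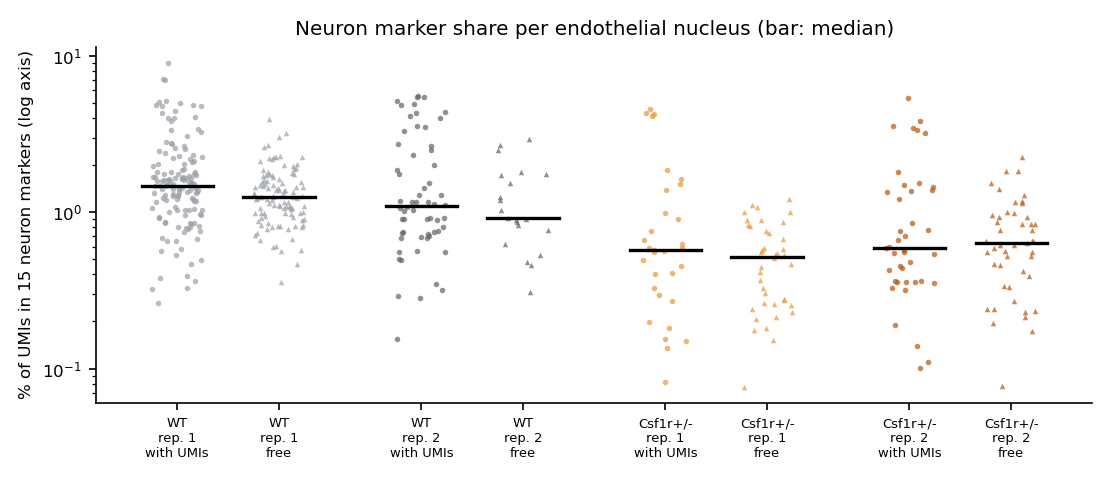
Share of each endothelial nucleus's UMIs on 15 neuron markers (percent, log axis) by library, for nuclei with and free of Snap25, Rbfox3 and Erbb4 UMIs, with bars at the medians. The WT medians lie between 0.917% and 1.48% and the Csf1r+/- medians between 0.519% and 0.638%.

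Next the endothelial nuclei were set beside the 144 mural nuclei, their nearest neighbours in the vessel wall. The same 9 marker genes that separated these nuclei also shape this contrast, so its values are a description. Mural nuclei carried a good part of the endothelial profile: the 24 endothelial markers summed to 10664 CPM there, with Slco1a4 at 1247 CPM and Cldn5 at 1227 CPM. Counts summed per library and cell type (edgeR's quasi-likelihood test with a library term) put 390 of 5913 genes past an adjusted p of 0.05 (6.6%), 154 higher in endothelial nuclei (2.6%) and 236 higher in mural nuclei (3.99%). The endothelial side of this split was the less stable, with 12 genes higher in endothelial and 167 higher in mural nuclei by DESeq2, 21 and 154 without WT replicate 1, 28 and 183 without WT replicate 2, and 58 and 188 without Csf1r+/- replicate 2.

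Of the 24 endothelial markers 18 were among the higher genes, and 6 of 6 tested mural markers outside the rule were among the lower ones. Erg was higher in endothelial nuclei by 1.38 ± 0.27 (log2 difference ± SE), Slco1c1, the thyroxine transporter gene, by 1.08, and Mecom by 1.07. Of the barrier transporters 9 were higher in endothelial nuclei: Abcc4, Abcg2, Lrp8, Mfsd2a, Slc2a1, Slc7a5, Slco1a4, Slco1c1 and Slco2b1. Over 9 alternatives the call of Slco1c1 held in all 9 and that of Abcg2 in 8, while Abcc4, Slc2a1 and Slco2b1 held in 4 and Mfsd2a in 2. The folate carrier gene Slc19a1 had the opposite pattern, at 142 CPM in mural nuclei against 24.6, 4.04, 43.7 and 28.2 CPM in endothelial ones. The transcription factor genes Erg, Fli1, Klf2, Klf4, Mecom, Sox17 and Sox18 and the Wnt effector gene Lef1 were higher in endothelial nuclei. Of these Mecom held in 8 of the 9 alternatives and Erg and Klf4 in 7, Fli1 in 5, Klf2, Sox17 and Lef1 in 4 and Sox18 in 3.

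The genes with the largest endothelial excess outside the rule included Gbp3 (2.08 ± 0.55), an interferon-induced GTPase gene, Arap3 (1.83 ± 0.43), Spns2 (1.77 ± 0.48), the sphingosine-1-phosphate exporter gene, and Chn2 (1.63 ± 0.25). Erbb4 was also among them (1.99 ± 0.39), and its distribution over nuclei is given below. The call of Chn2 held in all 9 alternatives and that of Arap3 in 6 of 9. Those of Gbp3 and Erbb4 held in 5 of 8 and that of Spns2 in 4 of 8. The genes with the largest mural excess outside the rule included Gprc5c (-4.03 ± 0.61), C1qtnf7 (-3.59 ± 0.58), Ednra (-3.50 ± 0.44), the endothelin receptor of contractile cells, Rarres2 (-3.47 ± 0.47) and the potassium channel gene Kcnj8 (-3.33 ± 0.32). Laminin and nidogen genes of the basement membrane, Lamc1 and Nid1, were higher in mural nuclei, as was Il34, the second ligand of the CSF-1 receptor, at 170 CPM against 22.5, 40.4, 29.2 and 32.9 CPM in the endothelial libraries.

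The 487 nuclei were also split by vessel type, with at least 2 UMIs of 1 list of 10 arterial or 10 venous genes and at least 2 times as many as of the other. This gave 165 arterial and 46 venous nuclei, and the rest could not be placed. Arl15 made up most of the UMIs of the arterial list and was found in neuronal nuclei at 399.7 CPM, against 639, 533, 432 and 526 CPM in the endothelial libraries. Of 6050 genes tested, 139 passed an adjusted p of 0.05 (2.3%, edgeR's quasi-likelihood test), 128 of them higher in arterial nuclei, among them 11 of 16 neuron markers, such as Kcnip4 (1.41 ± 0.24) and Meg3 (1.14 ± 0.26). Cxcl12, a chemokine gene of arterioles and capillaries, was higher in arterial nuclei by 1.12 ± 0.27, a call that held in 4 of 10 alternatives and was lost with Arl15 left out (0.85), among others. With Arl15 left out of the list there were 42 arterial and 72 venous nuclei, with 30 genes higher and 23 lower, and in free nuclei no gene passed. Without WT replicate 2 the count was 74 and without Csf1r+/- replicate 1 it was 70. The genotype comparison was made over all endothelial nuclei, arterial, venous and unplaced together.

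Among the remaining endothelial genes, the capillary marker genes Spock2 (1063, 783, 1035 and 1112 CPM) and Car4 (612, 565, 641 and 633 CPM) were well covered, while the arterial genes Bmx and Gkn3 and the venous genes Vwf and Ackr1 stayed at or under 70.4 CPM. The adhesion genes Sele and Selp, which mark activated vessels, were at 0 in all 4 libraries, and Vcam1 and Icam1 stayed at or under 18.8 CPM.

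The genotype was checked first at Csf1r. In the 707 microglial nuclei, where the receptor is mainly expressed and which were chosen in part by Csf1r itself, the gene stood at 747 and 720 CPM in the WT mice and 508 and 560 CPM in the Csf1r+/- mice. In endothelial nuclei it had 0, 0, 4 and 2 UMIs, where 0 UMIs allow up to 6.14 and 12.1 CPM in the WT libraries, and it was not tested there. Its ligand gene Csf1 was at 18.4, 12.1, 34.0 and 23.5 CPM and Il34 at 22.5, 40.4, 29.2 and 32.9 CPM, and both were too sparse to be tested. Differences between genotypes in Csf1 or Il34 were not detectable at this depth.

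For the genotype comparison the counts of the endothelial nuclei were summed per library and tested with edgeR's quasi-likelihood test over 4989 genes, with the study's unadjusted p of 0.01 as the threshold. The p-values rest on the spread between these 2 mice per genotype, with each gene's spread drawn towards that of other genes. Fewer nuclei of a kind or less RNA in each cannot be told apart in summed counts. There were 169 genes past it (3.39%), 20 higher in Csf1r+/- nuclei (0.401%) and 149 lower (2.99%), and 25 of the lower genes passed a Benjamini-Hochberg adjusted p of 0.05 (0.501%). The median log2 difference over all genes was 0.02. Scaling by library totals alone gave 40 higher and 141 lower. DESeq2 called 70 genes, 1 higher and 69 lower, and 9 genes, all lower, were called in the 90 nuclei with no mural gene UMI. The count was 299 without WT replicate 1, 105 without WT replicate 2, 271 without Csf1r+/- replicate 1, and 135 without Csf1r+/- replicate 2, with 135, 9, 126 and 26 adjusted calls in the same order.

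The endothelial programme itself showed no call. Over 132 tested genes of the fixed endothelial lists (markers, transporters, junctions, signalling, transcription factors, basement membrane, vascular tone and adhesion) none passed, 6 were at an unadjusted p under 0.05 by edgeR, the median log2 difference was 0.19, and 103 were positive. DESeq2 also called 0 of the 132, edgeR's likelihood-ratio test called Piezo1 higher and Slc38a1 lower, and 4 were called without WT replicate 1 (Cxcl12, Edn1 and Kdr higher, Slc38a1 lower) and 1 without WT replicate 2 (Klf2, higher). With nuclei thinned to at most 2000 UMIs Piezo1 and Nkd1 were called higher and Lama4 lower, and under the stricter marker rule (8 UMIs and 0.4%) Lama4 was called lower. The lowest value was that of the amino acid transporter gene Slc38a1 (-1.27 ± 0.45, adjusted p = 0.328 in edgeR's test), and the highest that of the junction gene F11r (1.04 ± 0.48). On simulated data with this design, 84.5% of genes changed by 1.5 on the log2 scale passed the threshold, and smaller changes were not simulated. The changed genes were drawn at random from all tested. Each had the spread typical of its level, so the share need not hold for these lists.

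Among barrier transporters 0 of 19 tested were called, with a median of 0.17. The 3.39% called over all genes tested amounts to under 1 gene in a list of this size or shorter, so that 0 calls in 1 list is near that share. Slco1a4 differed by 0.20 ± 0.24, Slco1c1 by 0.11 ± 0.26, Slc2a1 by 0.18 ± 0.27, and Abcg2, an efflux pump gene, by 0.48 ± 0.25. Among junction genes 0 of 14 were called, with Tjp1 at 0.09 ± 0.25, and Cdh5 at 0.08 ± 0.26. In each of these named genes the difference was within about 2 standard errors of 0.

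In VEGF and TIE signalling 0 of 8 were called (median 0.22), with Ptprb at 0.17 ± 0.25 and Kdr, VEGF receptor 2, at 0.62 ± 0.29 (edgeR adjusted p = 0.47). Kdr stood at 330, 174, 423 and 413 CPM. In the Wnt list 0 of 12 were called (median 0.10), with Lef1 at 0.14 ± 0.28. The Notch list had 0 of 7 calls (median 0.09), the TGF-beta and BMP list 0 of 10 (median 0.22), and the transcription factor list 0 of 15 (median 0.14), with Erg at 0.03 ± 0.29, Mecom at 0.08 ± 0.26 and Epas1 at 0.05 ± 0.25.

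The capillary list had 0 of 8 calls (median 0.09) and the basement membrane list 0 of 11 (median 0.22), with Sparc at 0.27 ± 0.25. Of the nitric oxide, caveolae and tone genes 0 of 10 were called (median 0.24). The mechanosensitive channel gene Piezo1 was at 38.9, 36.3, 92.3 and 70.4 CPM (1.02 ± 0.37, edgeR adjusted p = 0.333, not called). Of the adhesion and interferon genes 0 of 11 were called (median 0.25), with Cxcl12 at 1904, 880, 2284 and 1811 CPM and groups that overlapped.

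Metal ion handling was also described, with 0 of 12 tested genes called and a median of 0.01. The iron storage gene Fth1 stood at 868, 839, 841 and 901 CPM (-0.05 ± 0.24), the metallothionein gene Mt1 at 362, 242, 335 and 244 CPM (-0.16 ± 0.28), the iron exporter gene Slc40a1 at 358, 170, 228 and 296 CPM (-0.13 ± 0.32), and the copper chaperone gene Atox1 at 364, 242, 437 and 521 CPM (0.56 ± 0.27, edgeR adjusted p = 0.47). The copper pump gene Atp7b was at 0 in all 4 libraries.

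The lower genes were mostly genes of neurons. Of the 149 lower genes 145 had a higher level in neuronal than in endothelial nuclei, as did 1588 of the 4989 genes tested (31.8%), and the other 4 were Camk2n1, Erbb4, Ganab and Nfyc. Among the 18 fixed neuron markers 16 were tested, none was called higher and 6 were lower in Csf1r+/- nuclei (Erbb4, Galntl6, Grin2b, Meg3, Rbfox1 and Snhg11), with a median of -0.65 beside 0.02 over all genes. The calls of Meg3, Grin2b, Rbfox1 and Snhg11 were lost without Csf1r+/- replicate 2, where the log2 differences were -0.80, -0.68, -0.61 and -0.73, and those of Grin2b, Rbfox1 and Snhg11 without WT replicate 2. Galntl6 was -1.57 ± 0.38 and moved to -2.58 without Csf1r+/- replicate 1 and to -1.01 without Csf1r+/- replicate 2.

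Erbb4, a neuregulin receptor gene, had the largest difference, at 1353 and 2332 CPM in the WT libraries and 112 and 221 CPM in the Csf1r+/- libraries (-3.55 ± 0.37, edgeR adjusted p = 0.000622). Erbb4 was named for this difference, so the gap between the WT and the Csf1r+/- libraries is a description. Over 16 alternatives the Erbb4 difference lay between -4.12 and -1.55. Nxph1, a neurexophilin gene of interneurons, was at 371 and 533 against 63.2 and 42.2 CPM (-3.16 ± 0.35, edgeR adjusted p = 0.00077). Grip1, a scaffold gene of glutamate receptors, was at 434 and 759 against 58.3 and 136 CPM (-2.68 ± 0.39). Cntnap2, a neurexin family gene, was at 2314 and 2228 against 996 and 713 CPM (-1.49 ± 0.26). For these 4 genes no library left out ended the call. Over 16 alternatives Nxph1 lay between -3.52 and -1.39, Grip1 between -3.42 and -1.18 and Cntnap2 between -1.79 and -1.18. In the 90 nuclei with no mural gene UMI the calls of Erbb4 (-2.10), Nxph1 (-2.89) and Cntnap2 (-1.23) were lost.

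A few nuclei held most of the Erbb4 RNA. In 16 of the 487 nuclei there were 10 or more Erbb4 UMIs, and these 16 held 1090 of the 1309 Erbb4 UMIs (83.3%). They numbered 9 in WT replicate 1, 6 in WT replicate 2, 0 in Csf1r+/- replicate 1 and 1 in Csf1r+/- replicate 2, and the most in 1 nucleus was 281. Of the 16, 15 also held a UMI of Gad1 or Gad2, the genes of GABA synthesis, as did 34 of the other 471 nuclei. Their median was 5431.5 UMIs against 1524 in the others, with 4.89% against 1.07% of UMIs on the other neuron markers and 16 against 14 UMIs on the endothelial genes of the rule. Without them Erbb4 stood at 257, 249, 112 and 158 CPM. These nuclei were picked on the value described, so no test was made.

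**Figure D4:**
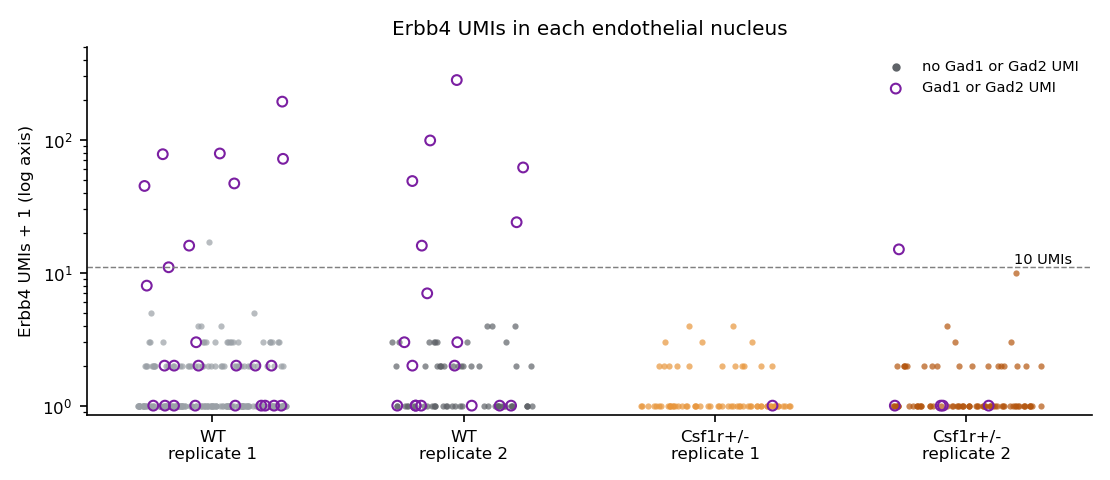
Erbb4 UMIs + 1 in each endothelial nucleus (log axis) by library, with nuclei that hold a Gad1 or Gad2 UMI marked. Most nuclei hold no Erbb4 UMI or a few, and the 16 nuclei with 10 or more are 9 and 6 in the WT libraries and 0 and 1 in the Csf1r+/- libraries.

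Some other lower genes were also concentrated in few nuclei. The 10 nuclei richest in each gene held 64.2% of the UMIs of Nxph1, 63.3% of Grik1, 62.5% of Kcnc2 and 56.9% of Grip1, against 9.87% of Slco1a4. Over the 149 lower genes the median of this share was 39.3%, over the 20 higher genes 35.5%, and over all genes tested 25.5%. The share is larger for genes with few UMIs, and the genes were not matched by level. The 10 deepest nuclei held 13.6% of all endothelial UMIs. For 28 of the 149 lower genes the 10 richest nuclei held at least as many UMIs as all others together. This was so for 1 of the 20 higher genes and 79 of the 4989 tested.

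The study had grouped genes by function, those for neurovascular coupling and transport from its endothelial cluster and those for cell death and the EIF2 pathway across cell types, and these lists were chosen on samples that include the present ones, so they are not independent evidence of a direction. Of 10 genes listed for neurovascular coupling 9 were tested and 8 were lower in Csf1r+/- nuclei (among them Chrm3, Gabrg3, Gria1, Gria4, Grik1, Grik2 and Ryr3), with a median of -1.52 beside 0.02 over all genes. These are receptor and channel genes that neurons use for glutamate, GABA, acetylcholine and calcium signals. Grik1, a kainate receptor gene, was at 229 and 258 against 19.4 and 37.5 CPM (-3.14 ± 0.37). Over 16 alternatives the Grik1 difference lay between -3.69 and -0.91, and its call held in 14 of them. Gria1, an AMPA receptor gene, was at 389 and 363 against 156 and 61.0 CPM (-1.88 ± 0.35). In neuronal nuclei Gria1 stood at 843 CPM. The call of Grik2 was lost without Csf1r+/- replicate 2 (-0.84) and that of Gria4 without WT replicate 1 (-0.73) or Csf1r+/- replicate 2 (-0.90), and Gabrg3 (-1.5 ± 0.36) moved to -2.29 without Csf1r+/- replicate 1.

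Of 9 genes the study listed for endothelial transport 8 were tested and 4 were lower (C2cd5, Htr2c, Kcnc2 and Robo1), with a median of -1.17. Kcnc2, a potassium channel gene of fast-spiking neurons, was at 446 and 525 against 102 and 93.9 CPM (-2.38 ± 0.29). Robo1, a guidance receptor gene, was at 524 and 626 against 180 and 164 CPM (-1.81 ± 0.27). Over 16 alternatives Kcnc2 lay between -2.48 and -1.18 and its call held in 15. Robo1 lay between -2.34 and -0.82 and its call held in 14. C2cd5 (-1.06 ± 0.32) lost its call without WT replicate 1 (-1.11), WT replicate 2 (-0.99) or Csf1r+/- replicate 1 (-0.90). The folate carrier gene Slc19a1 was too sparse to be tested. Of the 8 genes listed for cell death Erbb4 alone was called, and Apoe, Mt1, Fth1 and Tpt1 were not (Apoe 0.13 ± 0.24, Tpt1 0.53 ± 0.25). None of the 8 ribosomal protein genes of the EIF2 list was called, with a median of 0.08, Rpl13 at 944, 706, 953 and 1093 CPM and Rps29 at 541, 662, 530 and 605 CPM.

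**Figure D5:**
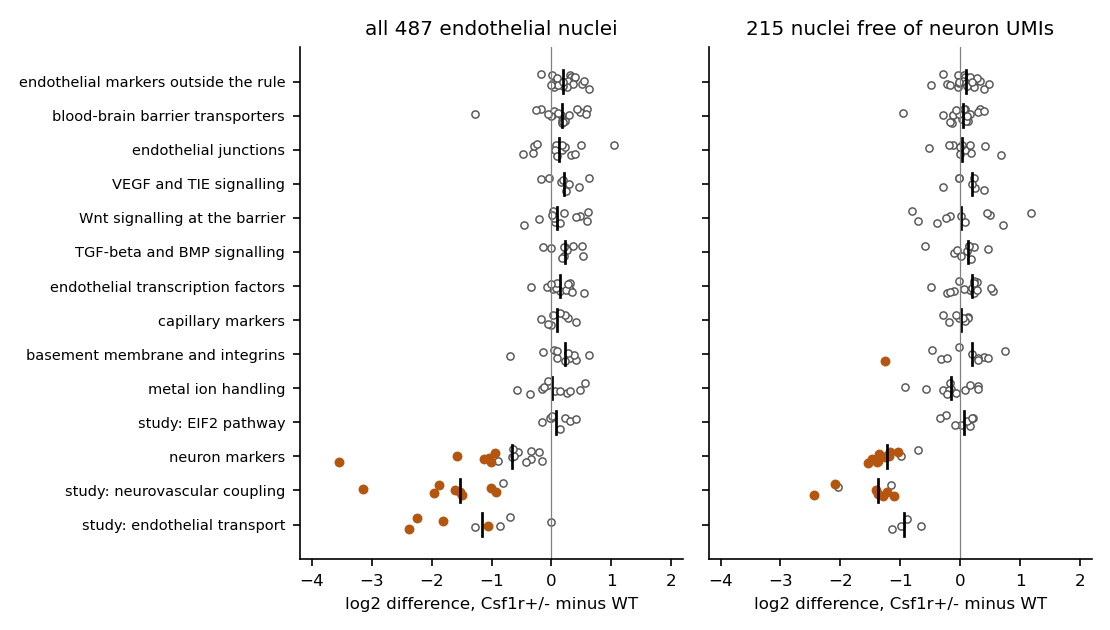
Log2 difference between genotypes (Csf1r+/- minus WT) of each tested gene in the fixed lists, in all endothelial nuclei and in free nuclei, with filled points for genes past an unadjusted p of 0.01. The endothelial lists plotted have medians of 0.09 to 0.22 in all nuclei with no called gene, and the neuron, neurovascular and transport lists lie to the left, with medians of -0.65, -1.52 and -1.17.

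The 20 genes that were higher in Csf1r+/- nuclei had differences of at most 1.87 (Hyal2), where the lower genes reached -3.55 (Erbb4). None of these 20 passed the adjusted threshold. Of them 10 had at least 4 times the level of neuronal nuclei (Acaa2, Fas, Fxyd5, Hyal2, Jun, Myo1e, Rps27l, Spcs1, Wdr83os and Zfp422), among 1426 such genes tested, of which none was lower and the median was 0.26. Fas, the death receptor gene, was at 57.3 and 56.5 CPM in the WT libraries and 160 and 122 CPM in the Csf1r+/- libraries (1.23 ± 0.33, edgeR adjusted p = 0.147). Jun, an immediate early gene, was at 86.0 and 80.7 against 238 and 127 CPM (1.04 ± 0.34) and fell to 0.47 without Csf1r+/- replicate 1, and its call was lost without WT replicate 2 as well (1.01). Emc7, a gene of the membrane protein insertion complex of the endoplasmic reticulum, was at 61.4 and 48.4 against 146 and 164 CPM (1.38 ± 0.31). Hyal2, a hyaluronidase gene, was at 16.4 and 4.04 against 29.2 and 65.7 CPM (1.87 ± 0.58). Its difference was 3.36 without WT replicate 1, and its call was lost without WT replicate 2 (1.45). The 2 libraries of each genotype did not overlap in these 4 genes, but all 4 were called on the same values. How often libraries did not overlap over all genes tested was not counted. The other 3 immediate early genes tested, Dusp1, Ier2 and Junb, were not called.

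The comparison was repeated on the 215 free nuclei, a subset of the same nuclei and not a second sample. Of 4110 genes 151 passed the unadjusted threshold (3.67%), 20 higher (0.487%) and 131 lower (3.19%), and 17 passed the adjusted one, all lower (0.414%). Without WT replicate 1, which holds 107 of these nuclei, 39 genes were called, and 93 without WT replicate 2, and the adjusted calls fell to 0 without WT replicate 1, WT replicate 2 or Csf1r+/- replicate 1 and to 3 without Csf1r+/- replicate 2. Neuronal genes again made up most of the lower calls, 120 of 131, where 26.5% of the genes tested had a higher level in neuronal nuclei. On simulated data of this size 58.5% of genes changed by 1.5 on the log2 scale passed, with the limits given above for the simulation.

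In free nuclei 12 neuron markers were tested and 10 were lower, with a median of -1.23 beside 0.02 over all genes. Kcnip4, a potassium channel interacting protein gene, was at 2512 and 2346 CPM in the WT libraries and 1116 and 1043 CPM in the Csf1r+/- libraries (-1.25 ± 0.24, edgeR adjusted p = 0.0201). Magi2, a synaptic scaffold gene, was at 636 and 683 against 186 and 181 CPM (-1.89 ± 0.34, edgeR adjusted p = 0.0201). Meg3, a long noncoding RNA abundant in neurons, was at 1448 and 1010 against 487 and 532 CPM (-1.39 ± 0.28), and without WT replicate 1 its difference of -1.01 just missed the threshold. Of the study's neurovascular list 7 of 9 were lower (median -1.37), with Gria1 at 156 and 356 against 28.6 and 63.9 CPM (-2.09 ± 0.56), a call lost without WT replicate 2 (-1.73). The call of Gria1 held in 14 of 15 alternatives and that of Ryr3 in 12 of 14, but those of Chrm3 and Gabrg3 held in 8 of 15, that of Gria4 in 7 of 16 and that of Grik2 in 5 of 16. Grik1, the list's largest difference in all nuclei, was not called in free nuclei (84.4 and 59.4 against 14.3 and 53.2 CPM, -1.16 ± 0.68), and none of the 4 transport genes tested was, with Kcnc2 at -1.14 ± 0.51 and Robo1 at -0.99 ± 0.40.

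Of 127 endothelial list genes tested in free nuclei 1 was called, with a median of 0.07. It was Lama4, the gene of the laminin alpha-4 chain of the vascular basement membrane, at 214 and 267 CPM in the WT libraries and 143 and 63.9 CPM in the Csf1r+/- libraries (-1.26 ± 0.44, edgeR adjusted p = 0.227). The call was lost without WT replicate 1 (-1.45), WT replicate 2 (-1.18) or Csf1r+/- replicate 2 (-0.78), and without Csf1r+/- replicate 1 the difference was -1.90. Of 16 alternatives the call held in 6, and it was lost with DESeq2, thinning, at least 1000 UMIs, no detection filter and no mitochondrial limit among others. In all nuclei Lama4 was -0.69 ± 0.29 and was not called, though it was under the thinning and the stricter rule given above. The barrier transporters (0 of 18, median 0.05), junctions (0 of 12, 0.03) and transcription factors (0 of 15, 0.20) had no call, nor had the 12 metal ion genes tested (median -0.16). Under the alternatives run, Jam2 was called higher without WT replicate 1, Nid2 higher without Csf1r+/- replicate 2, Lsr higher in nuclei with no mural gene UMI and Slc38a1 lower with no detection filter.

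The same gene was called in the same direction in all nuclei and in free nuclei for 54 genes, 32% of the calls in all nuclei and 35.8% of those in free nuclei. Of these 49 were lower and 5 were higher, namely Acaa2, Fas, Ocel1, Fxyd5 and Myo1e, of which the last pair were named after their values were seen. Fas was at 58.4 and 29.7 against 229 and 170 CPM in free nuclei (1.79 ± 0.51, edgeR adjusted p = 0.0931), and its call was lost without WT replicate 1 (2.62) or Csf1r+/- replicate 1 (1.56). Acaa2, a mitochondrial thiolase gene of fatty acid oxidation, was at 32.5 and 29.7 against 143 and 95.8 CPM (1.75 ± 0.63). Its call was lost with any 1 library left out, at differences of 1.44 to 1.99. Among genes called higher in free nuclei and not in all nuclei, the ribosomal protein gene Rpl31 was at 32.5 and 119 against 229 and 234 CPM (2.14 ± 0.51), a difference that was 0.93 and no longer called without WT replicate 1. Sik1, a salt-inducible kinase gene, was at 13 and 29.7 against 172 and 85.1 CPM (2.76 ± 0.74), and it was not called without WT replicate 1 (1.96) or Csf1r+/- replicate 1 (2.22). The interaction described next did not show a difference between free and other nuclei for Rpl31 or Sik1 (edgeR adjusted p = 0.9998 for both). A value of 29.7 CPM in free nuclei of WT replicate 2 is that of 1 UMI.

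Whether genotype differences depended on the presence of neuronal UMIs was tested by the interaction of genotype with nucleus kind (edgeR's quasi-likelihood test, counts summed per library and kind). Each mouse gave nuclei of both kinds, and the split rests on neuronal RNA, which itself moved with genotype. Of 4986 genes 53 passed an unadjusted p of 0.01 (1.06%) and none an adjusted p of 0.05, the smallest being 0.304, with 238 at an unadjusted p under 0.05. Of 13 neuron markers tested 2 were called at the unadjusted threshold, Kcnip4 (0.98 ± 0.27, edgeR adjusted p = 0.617) and Slc17a7 (3.48 ± 1.21, edgeR adjusted p = 0.911), 8 were at an unadjusted p under 0.05, and 12 of the 13 were positive (median 0.84), where positive means a log2 genotype difference that was more negative in free nuclei. Slc17a7 rests on 13 UMIs in free nuclei. In the main fit no gene passed the adjusted threshold for a difference between free nuclei and the others. With no detection filter 3 genes passed it, and some genes also passed it without WT replicate 2 or Csf1r+/- replicate 2. Without Csf1r+/- replicate 2, 147 genes passed the unadjusted one.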

How the data were processed

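Nuclei were isolated with a detergent-free kit from perfused brains, and 10x Chromium 3′ libraries were made from them. The deposited matrices hold raw UMI counts per gene and nucleus that the authors made with Cell Ranger 5.0.0 (per the file headers) on mm10 (per the labels). In the present work nuclei with 500 to 50000 UMIs, over 200 genes and under 5% mitochondrial UMIs were kept, 52132 of 53990 barcodes. 2 libraries per genotype were analysed. The study's methods describe 1 more mouse per genotype, which was not analysed here. Doublets stayed in the main analysis, and Scrublet's marks (55 endothelial nuclei) were used as an alternative. Across libraries 272 kept barcodes occurred in more than 1 library, none of them endothelial in both, and 5 endothelial barcodes also belonged to a kept nucleus of another library. Pairs of libraries differed by more than sampling noise (chi-square per degree of freedom 1.82 to 3.19).

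The members, gene lists and tests were chosen with earlier results of these data known. Endothelial counts were summed per library, and those detected in 10% or more of the WT or the Csf1r+/- nuclei with 10 or more counts in total entered edgeR 4.0.16 (glmQLFit and glmQLFTest, TMM scaling, two-sided), and calls were made at the study's p of 0.01 and at a Benjamini-Hochberg adjusted p of 0.05. The contrasts with mural and between arterial and venous nuclei had library as a term. Alternatives were edgeR's likelihood-ratio test, DESeq2 1.42.0, other scaling, filters, marker rules, thinning and each library left out, with no mitochondrial limit and Arl15 left out added after seeing the data. Named genes were up to 10 per direction with the largest fold among calls, all adjusted calls, list members with a call or otherwise the 2 to 4 with most UMIs, all genes of the study's endothelial lists, and Csf1r, Csf1 and Il34. For the mural and vessel type contrasts they were the 10 per direction with the largest fold among adjusted calls outside the rule's genes, and list members. Some genes that met these rules are not reported here, and the counts include them. Levels are CPM of all endothelial UMIs of a library. The tests were checked on simulated counts with 200 changed genes. Gene positions came from GENCODE M21, to which 99.9% of the gene identifiers matched, and scripts ran in Python 3.11.15 (scipy 1.17.1, scanpy 1.11.5) and R 4.3.3.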

Additional observations from a re-analysis of the deposited data

How the results depend on the processing

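Depth limits these results: 21 free nuclei in WT replicate 2 hold 33669 UMIs. Leaving a library out leaves 1 sample of a genotype, which is then assumed to vary like the other genotype's. Causes of the changes below were not tested.

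The 169 calls in all nuclei became 70 with DESeq2 (1 higher, 69 lower), 303 without nuclei of high Scrublet score, 110 with at least 8 UMIs and 0.4% on the 4 genes, 9 in the 90 nuclei without mural gene UMIs, and 294 with nuclei thinned to at most 2000 UMIs, and lay between 105 and 299 with 1 library left out. The likelihood-ratio test gave 226. The 25 adjusted calls became 76 with that test, 17 with DESeq2, 52 with library totals, 9 with no detection filter, 188 without high Scrublet scores, 2 under the stricter rule, 0 without mural gene UMIs, 188 after thinning, 55 with no mitochondrial limit and 9 to 135 with 1 library left out. The 151 calls in free nuclei became 24 with DESeq2, 100 under the stricter marker rule and 3 without mural gene UMIs, and lay between 39 and 120 with 1 library left out. Their 17 adjusted calls became 73 with the likelihood-ratio test, 10 with DESeq2, 43 with no mitochondrial limit, 27 without high Scrublet scores, and 0 with no detection filter, at least 1000 UMIs, the stricter rule or no mural gene UMIs. The interaction had 0 adjusted calls in the main fit and 3 with no detection filter. Its adjusted calls also rose above 0 without WT replicate 2 or Csf1r+/- replicate 2. The 53 interaction calls ranged from 40 to 147 with 1 library left out. The 390 genes that separated endothelial from mural nuclei became 179 with DESeq2 and 175 to 442 with 1 library left out. The 139 arterial and venous genes became 18 with DESeq2, 13 with no library term, 0 in free nuclei, 53 without Arl15 and 70 to 104 with 1 library left out. The share difference of -0.268 points turned to 0.0179 in free nuclei and ranged from -0.769 to 0.232 with 1 library left out.

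The reported genes that changed direction are given as log2 differences. In free nuclei Grik2 was 0.27 without mural gene UMIs, and with 1 library left out C2cd5 lay between -1.02 and 1.10, Ptprn2 between -1.34 and 5.30 and Robo1 between -1.21 and 0.0093. Between arterial and venous nuclei Grin1 was -0.22 and Rbfox1 -0.67 without Arl15, and Grik2 was -0.35 and Kcnc2 -0.013 in free nuclei.

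Replicate numbers are shared by the genotypes, but same-numbered libraries did not deviate together (r = -0.06 over genes), so the numbers give no pairing. With 2 libraries per genotype both pairs have the same r by construction, so it counts as 1 value. With the replicate block 156 genes were called in all nuclei (18 higher, 138 lower) and 144 in free nuclei, with 45 and 50 adjusted calls, and of the endothelial list genes Slc38a1 was called lower in all nuclei and none in free nuclei.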
